A study of Mus musculus with 20 samples.

Results

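Messenger RNA was described for 9 genes of the electron supply and the heme supply of cytochrome P450 enzymes in mouse liver: Por, Cyb5a, Cyb5b, Cyb5r3, Alas1, Urod, Fech, Hmox1 and Blvrb. They were chosen by symbol as a working list, and all 9 had an intact line in the deposited table, out of 23993 genes with one and 35504 genes in all. All 9 also passed the filter on low counts, which kept 10207 genes. The Cyp genes themselves stood on displaced lines and were not analysed here. Libraries were made from the livers of 20 female mice, 1 mouse a library, in 4 groups of 5. OC.VWR mice ate a diet with oral combined contraceptives (OC, an estrogen with a progestin) and had voluntary wheel running, and OC.Sed mice ate the same diet without running. Con.VWR mice ate the vehicle diet with running, and Con.Sed mice ate the vehicle diet without it. The steroids in the diet, their dose, the strain, the age and the length of treatment are not given in the sources used here. Replicate numbers only name libraries in the order of their records.

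Cytochrome P450 enzymes of the endoplasmic reticulum oxidise drugs, steroids and fatty acids, and each catalytic cycle needs electrons from NADPH that reach the enzyme through P450 oxidoreductase, with cytochrome b5 as an alternative donor at some steps. Every P450 and every cytochrome b5 carries heme. Heme is built from glycine and succinyl-CoA in a chain that starts with 5-aminolevulinate synthase in the mitochondrion and ends with ferrochelatase, and it is opened by heme oxygenase into biliverdin, iron and carbon monoxide. In the liver most new heme goes to P450 enzymes, and the hepatic synthase is known to be induced by drugs and steroids that induce P450 enzymes and to be repressed by heme itself.

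Promoter windows from RefSeq on GRCm38.p6, which run from 250 bases before to 50 bases after an annotated start, were held for 5 of the 9 genes (7 windows). Those of Por and Alas1 are printed because these genes had the largest changes of the 9 and separated the diets in every library. The Por window is chr5:135688895-135689194 (plus strand) and the Alas1 window is chr9:106247681-106247980 (minus strand), each within the span of its gene and written 5′ to 3′ along the gene. In both, a stretch after the start was found in a GENCODE transcript of the gene. Each of the printed windows lies downstream of the first annotated base of its gene. Capitals mark matches to the core of the site of NRF1 (nuclear respiratory factor 1), which is GCGC, any 2 bases, and GCGC again.
Por promoter: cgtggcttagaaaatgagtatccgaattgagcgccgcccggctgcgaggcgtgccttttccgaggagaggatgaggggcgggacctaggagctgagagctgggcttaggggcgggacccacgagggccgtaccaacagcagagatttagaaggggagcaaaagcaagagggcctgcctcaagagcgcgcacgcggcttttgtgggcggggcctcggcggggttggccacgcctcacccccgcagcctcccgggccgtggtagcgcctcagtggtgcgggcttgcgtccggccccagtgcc
Alas1 promoter: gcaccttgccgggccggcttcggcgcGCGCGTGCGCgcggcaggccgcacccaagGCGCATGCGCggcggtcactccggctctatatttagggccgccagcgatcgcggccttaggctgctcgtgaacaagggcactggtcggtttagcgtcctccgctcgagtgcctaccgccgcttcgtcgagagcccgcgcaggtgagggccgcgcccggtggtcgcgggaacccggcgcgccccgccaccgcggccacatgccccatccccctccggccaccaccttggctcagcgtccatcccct
G and C made up 67.3% of the Por window and 73.3% of the Alas1 window, against a median of 52.7% over the 32851 windows of all genes. Both strands were searched for 4 motifs, and no match overlapped another motif. The NRF1 core matched at 2 places in the Alas1 window and at the same 2 places in an overlapping second Alas1 window. These lie before the annotated start of the printed window and from the start on in the second. Of all windows, 6.23% held the NRF1 core. AGGTCA, the hexamer bound by many nuclear receptors, was in none of the 7 windows and in 16.3% of all windows. The antioxidant response element core TGANNNNGC was in both Blvrb windows and in 41.3% of all windows, and the E-box CACGTG was in the Urod window and in 7.15% of all windows. A match describes letters in these windows and was not tested for binding.

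The 9 genes are placed by the GENCODE vM21 annotation of GRCm38, the assembly that mm10 names, from the first to the last base of the gene. Por lies on chromosome 5 at 135670033-135735326 on the plus strand. Cyb5a lies on chromosome 18 at 84838704-84879871 (plus), Cyb5b on chromosome 8 at 107150640-107187471 (plus) and Cyb5r3 on chromosome 15 at 83153494-83172592 (minus). Of the heme synthesis genes, Alas1 lies on chromosome 9 at 106233455-106248654 (minus), Urod on chromosome 4 at 116989965-116994413 (minus) and Fech on chromosome 18 at 64452914-64490251 (minus). Hmox1 lies on chromosome 8 at 75093621-75100589 (plus) and Blvrb on chromosome 7 at 27447978-27466144 (plus). Exons of Cyb5r3 and Alas1 overlap exons of an antisense gene each, Gm49463 and 4930500F10Rik. The strand setting of the counting is not given in the sources used here, so reads of these pairs may not have been told apart. 4930500F10Rik had 1 count over all libraries, and the line of Gm49463 was displaced.

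Total counts per library were taken over the intact lines only. They ran from 12172401 to 14759028 in OC.Sed, from 12769367 to 14757592 in OC.VWR, from 10883936 to 14260634 in Con.Sed and from 13886098 to 16134618 in Con.VWR. Levels are given as CPM, the counts of a gene scaled to a common total of the tested genes after TMM scaling between libraries. Counts on the lines left out have no part in CPM or in the ranks by level. Fold changes are fitted log2 fold changes with their standard errors (SE), tested with edgeR's quasi-likelihood test on all 20 libraries and adjusted by Benjamini-Hochberg over the 10207 genes, and a gene passed at an adjusted p under 0.05. Con.Sed replicate 2 stood apart on the second principal component of all genes, at 53.0 against -17.1 to 11.2 in the other 19 libraries. For the genes of the working list, calls that changed without this library are named below. For the genes of the wider lists and the cell markers, calls without it are not reported here. Markers of the labelled tissue were at high levels in every library. The summed level of the 8 intact hepatocyte markers (of 10 listed) was 111945 to 137486 CPM in OC.Sed, 96470 to 137703 CPM in OC.VWR, 180236 to 209084 CPM in Con.Sed and 158135 to 215692 CPM in Con.VWR, none was at 0, and 4 of the 8 were lower on OC averaged over activity. The part of that difference in the results below was not tested. In bulk tissue, fewer cells of a type and less RNA per cell cannot be told apart.

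Averaged over activity, 3 of the 9 genes were higher on OC and none was lower: Por, Cyb5a and Alas1, the reductase, the microsomal cytochrome b5 and the first enzyme of heme synthesis. Of all genes tested, 11.9% were higher, 11% lower and 22.9% called in either direction in this comparison. The same 3 genes passed in sedentary mice, where 16.3% of all genes were called (9.11% higher and 7.2% lower), and in running mice, where 13.2% were called (7.09% higher and 6.06% lower). The median log2 fold change of the 9 genes was 0.02 in sedentary mice, 0.10 in running mice and 0.00 averaged over activity, beside medians of -0.01, 0.01 and 0.00 for all genes tested. The other 6 genes, Cyb5b, Cyb5r3, Urod, Fech, Hmox1 and Blvrb, did not pass in any of the 3 comparisons. Scaling by library totals alone moved the median of all genes to 0.10 in sedentary mice, 0.12 in running mice and 0.11 averaged over activity, and Por, Cyb5a and Alas1 stayed called, with log2 fold changes averaged over activity of 1.12, 0.77 and 1.31.

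**Figure D1:**
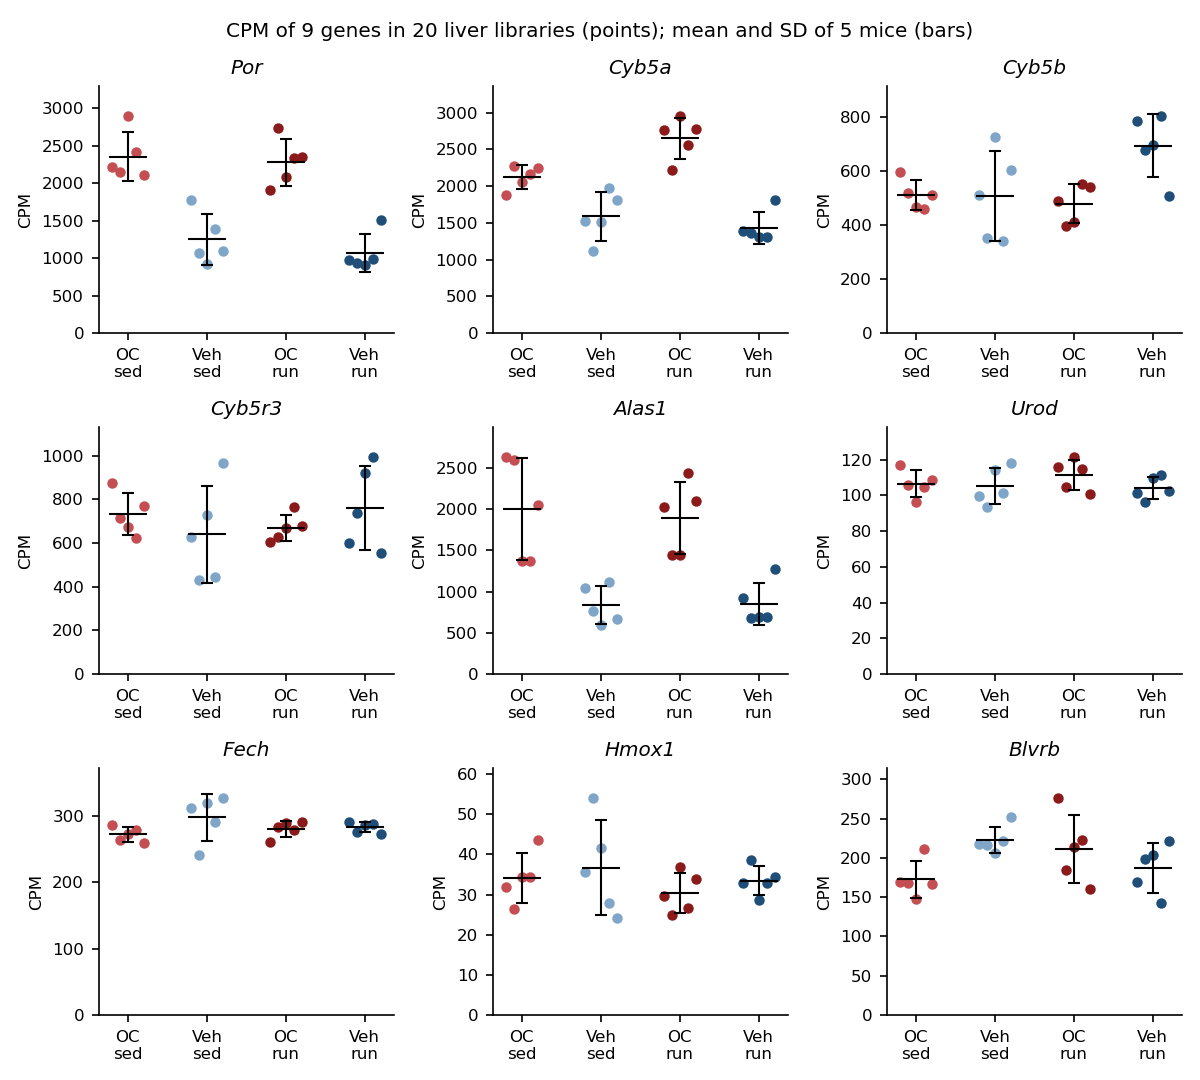
CPM of each of the 9 genes, 1 panel a gene, with 1 point a mouse and bars for the mean and standard deviation of 5 mice; groups run OC sedentary (OC.Sed), vehicle sedentary (Con.Sed), OC running (OC.VWR) and vehicle running (Con.VWR). All 10 OC points of Por and of Alas1 lie above all 10 vehicle points, while Urod, Fech and Hmox1 overlap between the diets.

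Por encodes NADPH-cytochrome P450 oxidoreductase, the flavoprotein that passes electrons to all microsomal P450 enzymes, to heme oxygenase and to squalene monooxygenase. In OC.Sed mice its level was 2219, 2143, 2893, 2411 and 2113 CPM, against 1782, 1063, 923, 1388 and 1098 CPM in Con.Sed mice. Every OC.Sed mouse was above every Con.Sed mouse; the nearest were OC.Sed replicate 5 and Con.Sed replicate 1. Such separation of OC.Sed from Con.Sed held for 11% of all genes. The difference was a log2 fold change of 0.91 (SE 0.17, 1.88-fold; edgeR adjusted p = 0.00111). In OC.VWR mice Por had 1905, 2732, 2078, 2337 and 2346 CPM, against 975, 936, 907, 989 and 1511 CPM in Con.VWR mice. These groups did not overlap either, as for 10.4% of all genes, and the highest Con.VWR value was that of replicate 5. The log2 fold change was 1.10 (SE 0.17, 2.14-fold; adjusted p = 0.000172) with all libraries and 1.26 without that replicate. Averaged over activity the fold was 2.01 (log2 fold change 1.01, 95% interval 0.76 to 1.26; adjusted p = 3.01e-06), and the 10 OC libraries did not overlap the 10 vehicle libraries, which held for 2.54% of all genes.

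Cyb5a encodes cytochrome b5 of the endoplasmic reticulum, a small heme protein that gives electrons to fatty acid desaturases, sterol enzymes and some P450 enzymes. Its level in OC.Sed mice was 1883, 2280, 2052, 2167 and 2253 CPM, against 1520.5, 1113, 1513, 1968 and 1817 CPM in Con.Sed mice. The groups overlapped, since Con.Sed replicate 4 was above OC.Sed replicate 1, and the other 4 OC.Sed mice were above all Con.Sed mice. Cyb5a rose by 0.42 on the log2 scale (SE 0.13, 1.34-fold; edgeR adjusted p = 0.0351). This call was the least firm of the 3 genes: leaving out any 1 of OC.Sed replicates 2, 4 and 5 or Con.Sed replicates 1, 2 and 3 gave an adjusted p of 0.0560 to 0.0775, and without Con.Sed replicate 2 the log2 fold change was 0.32. In OC.VWR mice Cyb5a had 2768, 2217, 2949.7, 2560.3 and 2771 CPM, against 1386, 1360.0, 1301, 1307 and 1816 CPM in Con.VWR mice. Here all OC.VWR mice were above all Con.VWR mice, and replicate 5 was again the highest of Con.VWR. These groups did not overlap for 10.4% of all genes. It rose by 0.89 on the log2 scale (SE 0.13, 1.85-fold; adjusted p = 0.000130). Averaged over activity it was 0.66 (SE 0.09, 1.58-fold; adjusted p = 3.09e-05).

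Cyb5b and Cyb5r3 complete the cytochrome b5 pathway. Cyb5b encodes the cytochrome b5 of the outer mitochondrial membrane, and Cyb5r3 encodes the NADH-dependent reductase that feeds electrons into cytochrome b5. In OC.VWR mice Cyb5b had 491, 395, 413, 554 and 541 CPM, against 787, 679, 698, 804 and 507 CPM in Con.VWR mice. The groups overlapped through Con.VWR replicate 5 alone, which lay below 2 of the OC.VWR mice. The log2 fold change was -0.54 (SE 0.18) and fell just short of the threshold (edgeR adjusted p = 0.0501). It was -0.63 (adjusted p = 0.0275) without that replicate, -0.54 (adjusted p = 0.0294) without Con.Sed replicate 2, and DESeq2 called it (adjusted p = 0.0245). In sedentary mice Cyb5b averaged 511.6 ± 54.5 CPM in OC.Sed and 508 ± 166 CPM in Con.Sed (SD, n = 5 each), with a log2 fold change of 0.01 (95% interval -0.36 to 0.38; adjusted p = 0.979). Con.Sed mice were spread over 339.8 to 728 CPM, a range that held every OC.Sed value. Cyb5r3 averaged 732.5 ± 96.9 CPM in OC.Sed, 669 ± 61.6 CPM in OC.VWR, 640.1 ± 222 CPM in Con.Sed and 762 ± 192 CPM in Con.VWR (SD, n = 5 each). Its log2 fold change on OC was 0.19 in sedentary mice (adjusted p = 0.520) and -0.19 in running mice (adjusted p = 0.554), and the vehicle groups were the more widely spread.

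Alas1 encodes the housekeeping 5-aminolevulinate synthase, the rate-limiting enzyme of heme synthesis in the liver. It had the largest fold change of the 9 genes. In OC.Sed mice it had 2626, 2590.5, 1367, 1375 and 2046 CPM, against 1046, 760.2, 595, 1109.7 and 672 CPM in Con.Sed mice. The groups did not overlap, as for 11% of all genes, although OC.Sed replicates 3 and 4 were far below the other 3 OC.Sed mice. The rise was 1.26 on the log2 scale (SE 0.24, 2.39-fold; edgeR adjusted p = 0.00114). In OC.VWR mice it had 2021, 1444, 1439, 2440.4 and 2092 CPM, against 924, 679, 686, 685 and 1274 CPM in Con.VWR mice. No OC.VWR mouse was as low as the highest Con.VWR mouse, replicate 5, and 10.4% of all genes had no overlap of these groups. The log2 fold change was 1.15 (SE 0.24, 2.22-fold; adjusted p = 0.00252), and 1.34 without that replicate. Averaged over activity the fold was 2.30 (log2 fold change 1.20, SE 0.17, edgeR adjusted p = 1.82e-05). All 10 OC libraries were above all 10 vehicle libraries, and 2.54% of all genes had no overlap between the diets.

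Urod and Fech stand further down the same chain. Urod encodes uroporphyrinogen decarboxylase of the cytosol, and Fech encodes ferrochelatase, which inserts iron into protoporphyrin in the last step. Urod averaged 106.5 ± 7.52 CPM in OC.Sed, 111.5 ± 8.46 CPM in OC.VWR, 105.3 ± 10.3 CPM in Con.Sed and 104.3 ± 6.19 CPM in Con.VWR (SD, n = 5 each). Its log2 fold change on OC averaged over activity was 0.06 (95% interval -0.06 to 0.18; adjusted p = 0.516). With library totals alone it was 0.17 (adjusted p = 0.00763), where the median of all genes was 0.11. Fech averaged 272 ± 11.0 CPM in OC.Sed, 281 ± 12.1 CPM in OC.VWR, 298 ± 34.8 CPM in Con.Sed and 283 ± 7.73 CPM in Con.VWR (SD, n = 5 each). The log2 fold change on OC averaged over activity was -0.07 (95% interval -0.19 to 0.05; adjusted p = 0.396), and with library totals alone it was 0.05. Both intervals lay far below the 1.20 of Alas1. The level of Alas1 per kilobase of exon, divided by that of Fech, was 11.1 to 22.0 in the 10 OC libraries and 4.18 to 10.4 in the 10 vehicle libraries, with no overlap. Divided by that of Urod it was 4.98 to 10.28 in OC and 2.19 to 5.225 in vehicle libraries, with overlap. Divided by that of Hmox1 it was 11.05 to 27.75 in OC and 3.99 to 11.31 in vehicle libraries, also with overlap. The size of each ratio depends on the exon lengths used, which were 6174 bases for Alas1 and 13838 for Fech. Alas1 alone also had no overlap, at 1367 CPM or more in OC and 1274 CPM or less in vehicle libraries. As red cell precursors make heme at high rates, their markers were read beside these genes: 4 of 12 listed had an intact line, and their summed level was 2.58 to 5.45 CPM in OC libraries and 2.78 to 5.84 CPM in vehicle libraries, where Klf1 had 2.43 to 5.83 CPM and Epb42 and Gata1 had at most 0.281 CPM in any library.

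Hmox1 acts on heme that is being broken down, and Blvrb was listed with it under heme breakdown. Hmox1 encodes the inducible heme oxygenase, which takes its electrons from the reductase, and Blvrb encodes biliverdin reductase B, an NADPH-dependent flavin and biliverdin reductase. Hmox1 was the lowest of the 9 genes, at 34.2 ± 6.20 CPM in OC.Sed, 30.4 ± 4.95 CPM in OC.VWR, 36.7 ± 11.8 CPM in Con.Sed and 33.5 ± 3.51 CPM in Con.VWR (SD, n = 5 each). Its log2 fold change on OC averaged over activity was -0.12 (95% interval -0.38 to 0.13; edgeR adjusted p = 0.513). Con.Sed replicate 2 had the highest level, at 54.0 CPM. Macrophages are known for high heme oxygenase levels, and the 10 intact markers of Kupffer cells and macrophages (of 14 listed) summed to 512 to 713 CPM in OC.Sed, 453 to 729.6 CPM in OC.VWR, 494 to 745 CPM in Con.Sed and 390.4 to 611 CPM in Con.VWR. For Blvrb, OC.Sed mice had 169, 169, 147, 211 and 167 CPM, against 218, 216, 207, 221 and 252 CPM in Con.Sed mice. Only OC.Sed replicate 4 reached the range of Con.Sed, yet the log2 fold change of -0.37 (SE 0.13) did not pass (adjusted p = 0.0661). It passed with DESeq2 (adjusted p = 0.0404) and without OC.Sed replicate 4 (edgeR adjusted p = 0.0327). In OC.VWR mice Blvrb had 276, 185, 214, 222 and 161 CPM, against 169.5, 199, 204, 142 and 221 CPM in Con.VWR mice. These groups overlapped widely, and the log2 fold change was 0.18 (adjusted p = 0.413).

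**Figure D2:**
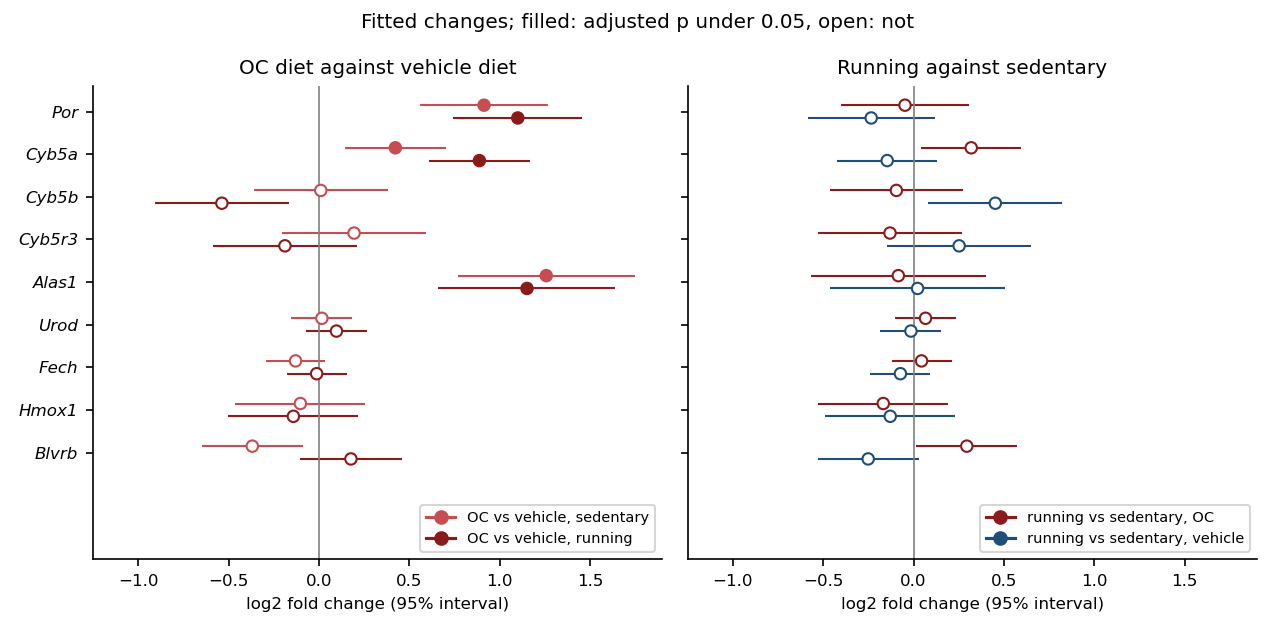
Fitted log2 fold changes of the 9 genes with 95% intervals, for OC against vehicle in sedentary and running mice on the left and for running against sedentary on each diet on the right; filled points had an edgeR adjusted p under 0.05. Por, Cyb5a and Alas1 are filled in both OC comparisons, no other gene is filled there, and no gene is filled for running.

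None of the 9 genes was called for wheel running on either diet, averaged over diet, or in the interaction of diet and running, and edgeR called 0% of all genes in each of these 4 comparisons. Of the 10207 genes, 694 had an unadjusted p under 0.05 on the OC diet, 1414 on the vehicle diet, 496 averaged over diet and 1802 in the interaction, and DESeq2 called 1, 42, 2 and 119 in the same order. At an unadjusted p under 0.05, 2 of the 9 were reached on the OC diet, 1 on the vehicle diet, 0 averaged over diet and 3 in the interaction, and DESeq2, limma voom and limma voom with sample weights called 0 of the 9 too. On the OC diet Cyb5a averaged 2653 ± 280.0 CPM in OC.VWR and 2127 ± 163 CPM in OC.Sed (SD, n = 5 each), a log2 fold change of 0.32 (edgeR adjusted p = 0.683). On the vehicle diet it averaged 1434 ± 216 CPM in Con.VWR and 1586 ± 329 CPM in Con.Sed, a log2 fold change of -0.15 (adjusted p = 0.626). The effect of OC on Cyb5a was larger in running mice than in sedentary mice by 0.46 on the log2 scale (95% interval 0.07 to 0.86), a difference that did not pass the test (interaction adjusted p = 0.234). Cyb5b averaged 695 ± 118 CPM in Con.VWR and 508 ± 166 CPM in Con.Sed, a log2 fold change of 0.45 (adjusted p = 0.294), and its interaction was -0.55 (adjusted p = 0.270). Blvrb averaged 212 ± 43.4 CPM in OC.VWR and 172.5 ± 23.3 CPM in OC.Sed, and 187 ± 31.4 CPM in Con.VWR and 223 ± 17.1 CPM in Con.Sed. Its interaction was 0.55 (95% interval 0.15 to 0.94; adjusted p = 0.211). For Por the effect of running was -0.05 on OC (adjusted p = 0.946) and -0.23 on vehicle (adjusted p = 0.532), and for Alas1 it was -0.08 on OC (95% interval -0.57 to 0.40) and 0.02 on vehicle (95% interval -0.46 to 0.51).

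Compared per kilobase of exon over all 20 libraries, Cyb5a was the most abundant of the 9 genes at 628 ± 176 CPM per kilobase (SD, n = 20), and Por followed at 432 ± 165. Cyb5a was above Por in 19 of the 20 libraries. Alas1 stood at 226 ± 111, Cyb5r3 at 163 ± 35.6 and Cyb5b at 125 ± 30.8. The place of Alas1 in this order differed between the diets. Its mean was 315 CPM per kilobase in OC and 137 in vehicle libraries, while that of Cyb5r3 was 163 in both, and that of Cyb5b was 113 in OC and 137.5 in vehicle libraries. Alas1 was above Cyb5r3 in 10 of 10 OC and 5 of 10 vehicle libraries, and above Cyb5b in 10 of 10 OC and 4 of 10 vehicle libraries. Blvrb at 71.4 ± 12.4, Urod at 41.3 ± 3.13, Fech at 20.5 ± 1.47 and Hmox1 at 19.2 ± 4.06 were lower, and Fech was above Hmox1 in 15 libraries. The length used was that of all annotated exons of a gene merged, 13838 bases for Fech and 1751 for Hmox1. In CPM, without this division, Fech averaged 284 and Hmox1 33.7 over the 20 libraries. Per kilobase, Cyb5a had rank 71 and Por rank 104 among the 10207 genes, and Hmox1 had rank 1731. Ratios within a library are given as a description. Cyb5a over Cyb5b, the microsomal over the mitochondrial cytochrome b5, averaged 6.93 ± 1.49 in OC and 3.92 ± 1.77 in vehicle libraries. Por over Cyb5r3, the P450 reductase over the cytochrome b5 reductase, averaged 3.58 ± 0.668 in OC and 1.97 ± 0.905 in vehicle libraries. Alas1 over Por averaged 0.562 ± 0.180 in OC and 0.477 ± 0.0717 in vehicle libraries (SD, n = 10 each). The ranges of all 3 ratios overlapped between the diets.

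Relations between the genes from mouse to mouse were taken within a diet. For each pair, log2 CPM was set against its group mean and correlated over the 10 libraries of a diet, which gave 72 relations, with permutation p-values from 100000 draws. None of the relations in vehicle mice had an adjusted p under 0.05. The closest by Pearson's r was that of Por and Alas1, at r = 0.891 (permutation p = 0.00501, adjusted 0.180) and Spearman's rho = 0.745 (permutation p = 0.0298, adjusted 0.387), with r = 0.852 without the 2 libraries farthest out in Por. By Spearman's rho the closest was that of Cyb5b and Fech, at rho = 0.867 (permutation p = 0.00348, adjusted 0.125) and r = 0.753 (permutation p = 0.0201, adjusted 0.255), with r = 0.834 without the 2 libraries farthest out in Cyb5b. Con.Sed replicates 1 and 4 and Con.VWR replicate 5, the 3 vehicle libraries with the most Por, were also the 3 with the most Alas1. Alas1 fell into separate ranges among OC mice, at 1367 to 1444 CPM in 4 libraries and 2021 to 2626 CPM in the other 6, with both activities in each. The 4 libraries low in Alas1 had 468.5, 462, 395 and 413 CPM of Cyb5b, and the other 6 had 491 to 598 CPM of it. The 4 were thus also the lowest in Cyb5b. The correlation of Cyb5b and Alas1 in OC mice was r = 0.872 (permutation p = 0.00022, adjusted 0.0158). Spearman's rho was 0.806 (permutation p = 0.00079, adjusted 0.0569), and r was 0.844 without the 2 libraries farthest out in Cyb5b. Because of the gap, this r cannot tell a graded relation from a difference between the 4 and the other 6 libraries. No other relation in OC mice had an adjusted p under 0.05. In vehicle mice Cyb5b and Alas1 had the opposite sign, at r = -0.657 (permutation p = 0.0539, adjusted 0.306). Their Spearman's rho there was -0.636 (permutation p = 0.0840, adjusted 0.425).

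**Figure D3:**
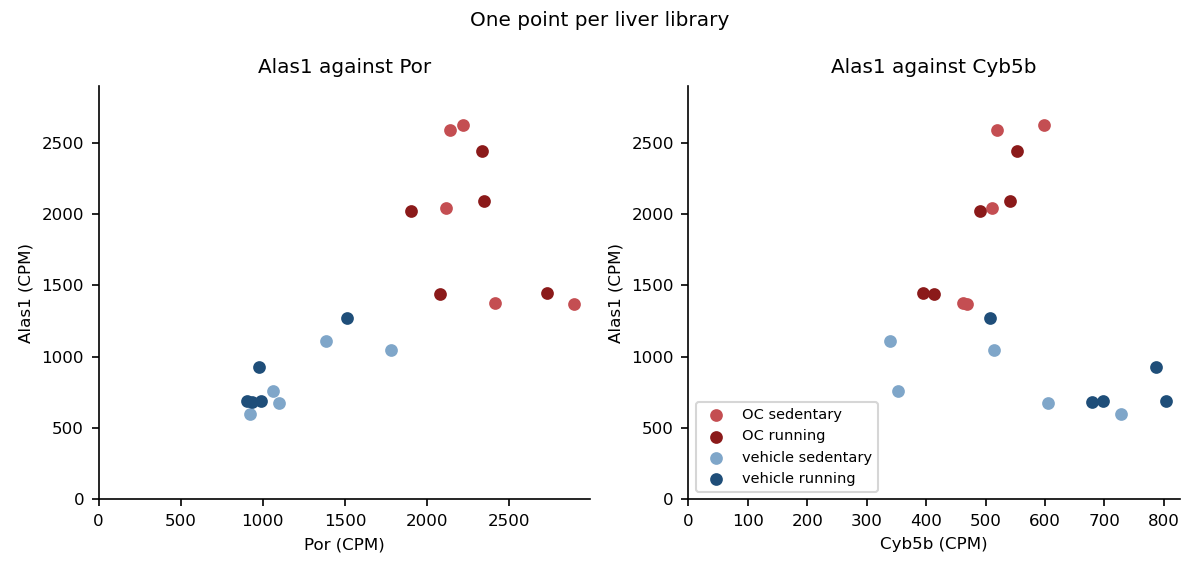
Alas1 against Por on the left and Alas1 against Cyb5b on the right, both axes in CPM, with 1 point a library coloured by group. The OC points lie above the vehicle points in Alas1, and the 4 OC libraries at 1367 to 1444 CPM of Alas1 lie to the left of the other 6 OC libraries in Cyb5b.

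The wider gene lists of the pathway were read from their intact members. Of 18 electron transfer genes 17 were tested, and averaged over activity 5 rose on OC, 1 fell and 11 did not pass, with a median log2 fold change of 0.01. Apart from the 4 genes already described, 3 rose and 1 fell of 13. Cyb5d2, a heme-binding member of the cytochrome b5 domain family, rose by 0.42 on the log2 scale (edgeR adjusted p = 0.000243). Fdx1, the mitochondrial ferredoxin that serves mitochondrial P450 enzymes, rose by 0.26 (adjusted p = 0.0450), and Pgrmc1, a heme-binding partner of P450 enzymes, rose by 0.23 (adjusted p = 0.0298). Its relative Pgrmc2 fell by 0.28 (adjusted p = 0.0222).

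In the heme synthesis list 13 of 20 genes were tested, and 2 rose, 1 fell and 10 did not pass, with a median of 0.06. Apart from Alas1, Urod and Fech, 1 rose and 1 fell of 10. Other enzymes of the chain had log2 fold changes of 0.25 (Uros), -0.09 (Cpox) and 0.04 (Ppox), none of which passed. Clpx and Clpp, the subunits of the mitochondrial protease known for acting on 5-aminolevulinate synthase, were the other called genes. Clpx fell by 0.54 (edgeR adjusted p = 0.0465), with 83.9 ± 19.2 CPM in OC.Sed, 91.3 ± 44.3 CPM in OC.VWR, 119 ± 23.5 CPM in Con.Sed and 137 ± 62.7 CPM in Con.VWR (SD, n = 5 each), and Clpp rose by 0.16 (adjusted p = 0.0490).

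Of the 18 genes of heme breakdown, heme transport and bilirubin handling 10 were tested, and 3 rose, 1 fell and 6 did not pass, with a median of 0.13. Hp, the plasma protein haptoglobin that binds free hemoglobin, had 5045 ± 369 CPM in OC.Sed, 5673 ± 765 CPM in OC.VWR, 3734 ± 695 CPM in Con.Sed and 3654 ± 445 CPM in Con.VWR (SD, n = 5 each; log2 fold change 0.53; edgeR adjusted p = 0.000278). Abcg2, a transporter that exports porphyrins, rose by 0.33 (adjusted p = 0.00133), and Hmox2, the constitutive heme oxygenase, rose by 0.21 (adjusted p = 0.0155). Flvcr2, named as a heme transporter and since described as a choline carrier, fell by 1.18 (adjusted p = 0.00277) at a low level of 3.36 to 11.9 CPM in the group means.

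A list of enzymes other than P450, most of which take electrons from the reductase or from cytochrome b5, moved in both directions. Of 16 listed genes 12 were tested, and averaged over activity 2 rose, 3 fell and 7 did not pass, with a median of -0.06. In sedentary mice 2 rose and 0 fell, and in running mice 0 rose and 2 fell. Cmah, which hydroxylates sialic acid with electrons from cytochrome b5, had 219 ± 33.7 CPM in OC.Sed, 164 ± 30.7 CPM in OC.VWR, 100.01 ± 26.1 CPM in Con.Sed and 148 ± 24.1 CPM in Con.VWR (SD, n = 5 each). It rose by 0.64 averaged over activity (edgeR adjusted p = 0.000685) and by 1.13 in sedentary mice (adjusted p = 0.000201), and its log2 fold change in running mice was 0.15 (adjusted p = 0.606). The difference between the activities, tested as the interaction, was -0.98 (adjusted p = 0.201). The desaturases Fads2 and Fads1, which make polyunsaturated fatty acids with electrons from cytochrome b5, fell by 0.81 (adjusted p = 0.000271) and 0.38 (adjusted p = 0.0224). Fads2 had 1258 ± 88.1 CPM in OC.Sed, 902 ± 151 CPM in OC.VWR, 1802 ± 584 CPM in Con.Sed and 1945 ± 425 CPM in Con.VWR (SD, n = 5 each). Agmo, an ether lipid monooxygenase, fell by 0.23 (adjusted p = 0.0204). It is counted among the 3 that fell, although it is not known to take electrons from either source. Among 8 tested genes of NADPH supply (of 14 listed) 1 rose, 2 fell and 5 did not pass, with a median of 0.14. Nadk, the cytosolic NAD kinase, rose by 0.20 (adjusted p = 0.0497), Nnt, the mitochondrial transhydrogenase, fell by 0.45 (adjusted p = 7.46e-05), and G6pdx, the first enzyme of the pentose phosphate pathway, fell by 0.55 (adjusted p = 0.0339).

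With Por and Alas1 counted, known targets of the xenobiotic receptors CAR and PXR, other than Cyp genes, had the largest share of calls among the lists. Of 32 listed genes 8 had an intact line and were tested, and 5 rose, 0 fell and 3 did not pass in each of the 3 OC comparisons, with a median of 0.79 averaged over activity. Por and Alas1 are on this list, and without them 3 rose of 6. Of all genes tested, 9.11% rose in sedentary mice, 7.09% in running mice and 11.9% averaged over activity. The lists were chosen with earlier results of these data known. In the heme breakdown list without Hmox1 and Blvrb, 3 rose and 1 fell of 8 averaged over activity, a share of calls no smaller. Ces2a, a carboxylesterase, had 735 ± 66.1 CPM in OC.Sed, 808 ± 61.4 CPM in OC.VWR, 212 ± 66.5 CPM in Con.Sed and 195 ± 24.4 CPM in Con.VWR (SD, n = 5 each; log2 fold change 1.92; edgeR adjusted p = 5.50e-10). Its paralog Ces2c rose by 1.58 (adjusted p = 4.79e-05), and reads may be split between such close copies. Fmo5, a flavin monooxygenase, rose by 0.58 (adjusted p = 0.000319).

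Of 13 tested regulators of the P450 system (25 listed) 2 rose, 2 fell and 9 did not pass averaged over activity, with a median of -0.12. The genes of CAR and PXR themselves, Nr1i3 and Nr1i2, are on this list but stood on displaced lines and were not tested. In sedentary mice 2 rose and 0 fell, and in running mice 0 rose and 3 fell. Ahr, the dioxin receptor, rose by 0.53 (edgeR adjusted p = 0.00543), and Esr1, the estrogen receptor alpha, rose by 0.34 (adjusted p = 0.0330). Ppara, the fatty acid receptor, fell by 0.54 (adjusted p = 0.00534), and Tef, a clock output factor, fell by 0.26 (adjusted p = 0.0490). Of 11 tested NRF2 targets (24 listed), the genes of the oxidative stress response to which Hmox1 and Blvrb belong, 0 rose, 1 fell and 10 did not pass, with a median of 0.05. The one that fell was G6pdx.

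**Figure D4:**
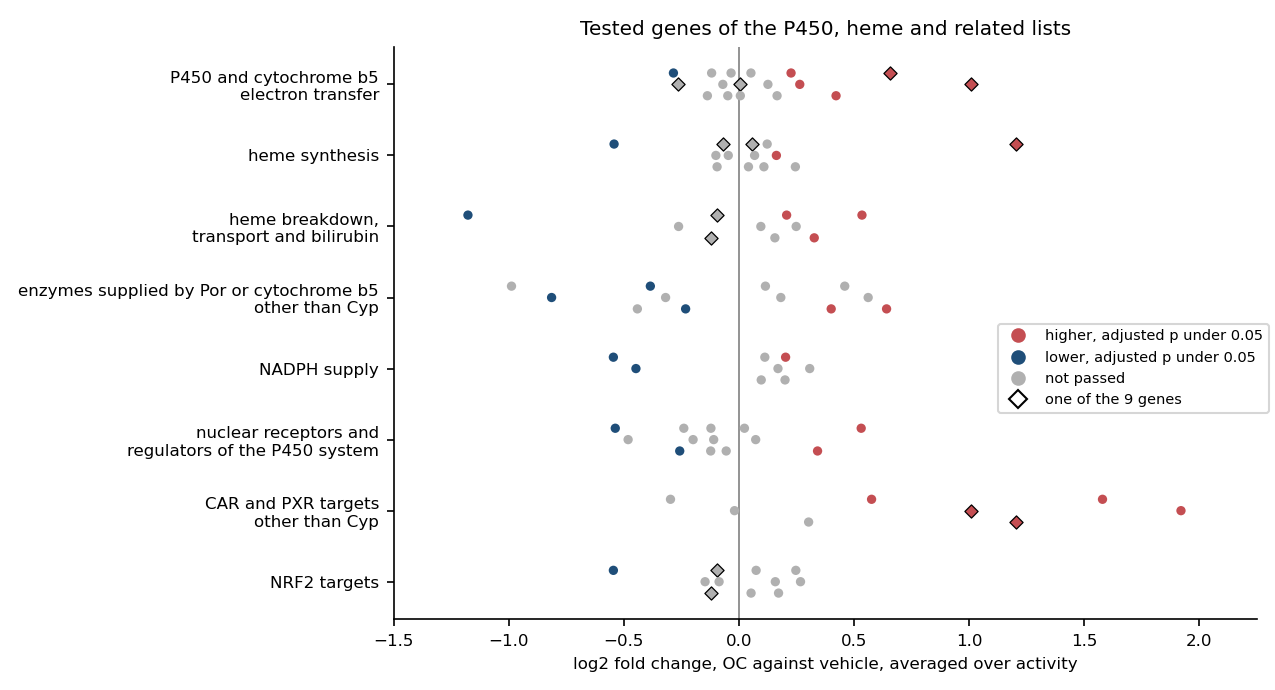
Log2 fold change on OC averaged over activity of each tested gene of the 8 lists, coloured by direction where the edgeR adjusted p was under 0.05 and grey where not, with diamonds for the 9 genes. The CAR and PXR list has 5 of 8 genes higher, Por and Alas1 among them, and the NRF2 list has 0 of 11 higher. Without Por and Alas1 the CAR and PXR list has 3 of 6 higher, and 11.9% of all genes tested were higher.

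Markers of other cells were read on the same libraries. Averaged over activity, 7 of the 8 tested markers of stellate cells and fibroblasts (12 listed) were lower on OC, with summed levels of 389.6 to 659.6 CPM in OC.Sed, 390.7 to 609 CPM in OC.VWR, 624 to 924 CPM in Con.Sed and 584 to 766 CPM in Con.VWR. None of the 9 tested endothelial markers (12 listed) and none of the 6 tested cholangiocyte markers (7 listed) was called, and 1 of 10 Kupffer cell markers was higher. P450 enzymes and the reductase are known to be richer around the central vein, and 1 of 8 tested pericentral markers was lower and 0 were higher on OC, with summed levels of 3140.3 to 3397 CPM in OC.Sed, 2362 to 3229 CPM in OC.VWR, 1655 to 3270.2 CPM in Con.Sed and 2895 to 3962 CPM in Con.VWR. Of the 7 tested periportal markers (12 listed) 3 were lower, with summed levels of 7004 to 8450.4 CPM in OC.Sed, 6448 to 8807 CPM in OC.VWR, 6649 to 12245 CPM in Con.Sed and 7587 to 14351 CPM in Con.VWR. Of the 7 tested markers of lymphocytes and neutrophils (14 listed) 2 were lower and 0 higher averaged over activity, 3 were lower and 0 higher in sedentary mice (median log2 fold change -0.63), and 1 was lower and 2 were higher in running mice (median 0.13). Their summed levels were 7.07 to 11.5 CPM in OC.Sed, 5.68 to 19.2 CPM in OC.VWR, 11.2 to 20.2 CPM in Con.Sed and 7.09 to 9.22 CPM in Con.VWR. The part of these cell markers in the results for Por, Cyb5a and Alas1 was not tested.

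The genes whose profile over the 20 libraries was most like that of each called gene were found by the root mean square distance of mean-centred log2 CPM, among 8943 genes. For Por they were Rapgef4 (distance 0.20), Rhbdd2 (0.23), Cdk18 (0.30) and Mug2 (0.32). For Cyb5a they were Pusl1 (0.15), Echdc3 (0.17), Mindy3 (0.18) and Uvrag (0.20), and for Alas1 they were Stbd1 (0.30), Synj2 (0.34), Hsd17b2 (0.34) and C2cd2l (0.34). Por was the 10th nearest gene to Alas1 (0.38), and Cyb5a was the 22nd nearest to Por (0.35). Seen from Cyb5a, Por was the 734th nearest.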

How the data were processed

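RNA from 20 mouse livers was sequenced as stranded paired-end libraries, per the labels' protocols. The submitters' processing notes list STAR, R 4.05, limma and the build mm10. The counting program, annotation and strand setting are not given in the sources used here. Units are not stated: the unit of the deposited values was judged to be expected counts for each gene, unscaled, because 2 unused genes held values that were not whole. All values used were whole, and they could as well be plain counts, which the planned design had assumed; rounding moved no value. Of 35504 lines 23993 (67.6%) were intact and 11511 (32.4%) were left out, 11200 of them because they began with a 1 in the first library, a sign of values displaced along the line. Libraries of a group were separate mice, and no pair had identical values.

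Counts were tested with edgeR 4.0.16 in R 4.3.3. The fit used filterByExpr (10207 genes, 99.9% of the counts on intact lines), TMM factors (0.904 to 1.11), 1 mean per group over 20 libraries and 7 contrasts. Benjamini-Hochberg adjustment was over all 10207 genes. The common biological coefficient of variation was 0.178. Alternatives were DESeq2 1.42.0, limma 3.58.1 voom with and without sample weights, DESeq2 size factors, library totals alone, other filters, fits on the groups compared only, and leaving out each library. Correlations used scipy 1.17.1. The steps were tested on simulated data. The 9 genes, the 8 gene lists and 9 marker lists were chosen with earlier results of these data known. From each list the text names up to 3 genes called in each direction on OC averaged over activity, by fold change, with a mean of at least 1 CPM, and for each called gene the 4 genes of nearest profile; 3 uncalled heme synthesis enzymes were added after their values were seen, and some genes of these lists are not reported here. Counting error is small at these depths (10883936 counts or more per library on the intact lines), and the spread between mice sets the precision.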

Additional observations from a re-analysis of the deposited data

Results flagged for a closer look

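In 36 checks of 1 gene in 1 group of 5 mice, 2 had a mouse far from the rest by Dixon's ratio (critical value 0.71 for 5 mice), where chance flags about 1 in 20. Both were Con.VWR replicate 5. Its Por was 10.56 log2 CPM, with the other 4 mice at 9.82 to 9.95 (ratio 0.83), and its Cyb5a was 10.83 log2 CPM, with the others at 10.35 to 10.44 (ratio 0.809). The same mouse had the highest Alas1 of its group, at 1274 CPM, and the lowest Cyb5b and Cyb5r3, at 507 and 557 CPM. Without it the log2 fold change on OC in running mice was 1.26 for Por, 0.99 for Cyb5a and 1.34 for Alas1, each still called by edgeR.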

How the results depend on the processing

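No paired analysis was possible because the labels give no replicate numbers that join mice across groups. Por and Alas1 were called in every OC comparison under all alternatives, and Cyb5a in running mice and averaged over activity. With each library left out in turn, the OC effect averaged over activity ran from 0.96 to 1.09 for Por, 0.60 to 0.71 for Cyb5a and 1.13 to 1.30 for Alas1. The number of genes called among the 9 was 2 to 4 in sedentary mice, 3 to 4 in running mice, 3 to 4 averaged over activity and 0 for running and the interaction. Cyb5a in sedentary mice was lost in the fit of the 2 groups alone (adjusted p = 0.0745). Cyb5b in running mice was called with the filter of 1 CPM (0.0490), with DESeq2 (0.0245), with voom weights (0.0261), with the 2 groups alone (0.0232) and without 7 single libraries, down to an adjusted p of 0.0275. Blvrb in sedentary mice was called with DESeq2 (0.0404), with the 2 groups alone (0.0372) and without 4 single libraries, and Urod in running mice with library totals alone (log2 fold change 0.21, adjusted p = 0.0315). The cause of these moves was not tested.

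Changes of sign touched only effects that were not called. On OC averaged over activity Cyb5r3 was -0.0029 with DESeq2 size factors in edgeR and with DESeq2. With library totals alone Fech was 0.105 in running mice and 0.0488 averaged over activity, and Blvrb was 0.0138 averaged over activity. With voom weights Hmox1 was 0.0021 on OC in sedentary mice, and running on vehicle was -0.10 for Alas1 and 0.0063 for Urod. Leaving out single libraries gave, for OC in sedentary mice, -0.10 to 0.17 for Cyb5b, -0.0291 to 0.0527 for Urod and -0.23 to 0.0776 for Hmox1, -0.0437 to 0.0136 for Fech in running mice, and -0.0527 to 0.10 for Cyb5r3 averaged over activity. For running it gave, on OC, -0.20 to 0.0286 for Alas1 and -0.12 to 0.0286 for Por; on vehicle, -0.17 to 0.15 for Alas1, -0.25 to 0.0512 for Hmox1 and -0.0541 to 0.0218 for Urod; averaged over diet, -0.13 to 0.0307 for Alas1, -0.0349 to 0.0650 for Blvrb and -0.0481 to 0.0033 for Fech; and in the interaction, -0.23 to 0.0853 for Alas1 and -0.22 to 0.0940 for Hmox1.

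Among all genes, 1665 were called in sedentary mice and 998 without OC.Sed replicate 1, and 1343 in running mice, with 817 and 835 without OC.VWR replicates 1 and 3 and 2224 with voom weights. For running, DESeq2 called 1 gene on OC, 42 on vehicle and 2 averaged over diet, and 119 in the interaction, where edgeR called 0. With library totals alone 82.6%, 80.6% and 81.0% of calls were higher in sedentary mice, running mice and averaged over activity, against 55.9%, 53.9% and 51.8% with TMM.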
